A study of Mus musculus with 8 samples.

Results

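Glucose transport, glycolysis and the glycerophosphate shuttle were followed through 38 genes in the fetal mouse heart, in the presence and absence of the type 3 deiodinase (*Dio3*), the enzyme that inactivates thyroid hormones. The genes were taken as a list by name, from the glucose transporters to the pyruvate dehydrogenase complex, with glycogen enzymes and the enzymes that carry cytosolic reducing equivalents into mitochondria. All 38 were found among the 26590 gene symbols of the table, on 102 of its 51414 transcript rows, and each gene was described by its row with the highest mean.

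Hearts of 4 Dio3+/+ and 4 Dio3-/- fetuses of strain C57BL/6J were profiled by RNA sequencing, each RNA coming from 1 fetus. Dio3-/- mice lack *Dio3* in the whole conceptus from fertilization on, so that a response of the heart itself and a response to other organs or the placenta cannot be told apart. The sample titles give all 8 hearts as E13.5 (embryonic age in days), but the age field of Dio3-/- hearts 3 and 4 reads E18.5, and the methods text names E14.5, so that a difference of age between the genotypes cannot be told apart from one of genotype. The hearts were described as male, although the table lists both *Xist*, expressed from an inactive X chromosome, at 35.64 and 39.97 RPKM (Dio3+/+ and Dio3-/-), and the Y-linked *Eif2s3y*, at 9.38 and 7.29 RPKM. The sexes of single hearts cannot be read from it.

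The table holds, for each genotype, the authors' mean over 4 hearts and the coefficient of variation (CV, the SD divided by the mean), and no value of a single heart. The means were read as RPKM, a read count scaled to transcript length and library size, which adjusts for transcript length. A log2 fold change is the difference of log2(RPKM + 0.5), Dio3-/- minus Dio3+/+, and is given ± its SE with n = 4 hearts per genotype. Adjusted *P* values are from limma with Benjamini-Hochberg adjustment over all transcripts above 1 RPKM in at least 1 genotype, and genes under 0.05 are called higher or lower. Of 4 values, none can lie further than 1.5 SD from their mean, which gives limits for the hearts that are not listed one by one.

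Glucose enters cells through facilitative transporters and is phosphorylated by hexokinase, then committed to glycolysis by phosphofructokinase and split into triose phosphates that are oxidized to pyruvate. Pyruvate is reduced to lactate or enters mitochondria, where pyruvate dehydrogenase makes acetyl-CoA, and the glycerophosphate shuttle passes the electrons of cytosolic NADH to the respiratory chain. The fetal heart relies largely on glucose and lactate and turns to fatty acids after birth, and thyroid hormone is known to raise *Slc2a4* and *Gpd2* in adult tissues.

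Transcripts of 6 genes of this network were higher in Dio3-/- hearts, and none was lower. The 6 genes were *Slc2a4*, the insulin-responsive glucose transporter GLUT4, *Hk2*, the insulin-responsive hexokinase, *Eno3*, the muscle enolase, *Slc16a3*, the lactate exporter MCT4, *Gbe1*, the glycogen branching enzyme, and *Gpd2*, the mitochondrial glycerophosphate dehydrogenase. Their means were between 1.30 and 1.48 times those of Dio3+/+ hearts. They made up 16.7% of the 36 genes above 1 RPKM, where 1.91% of all 14657 genes tested were called higher and 0.382% lower by limma (2.29% in either direction). The members were chosen with earlier results of these data known, so that these shares are no independent comparison. No member was lower at an unadjusted *P* under 0.05 either, against 4.46% of all genes. The other 30 tested genes were not called. Of these, *Slc2a1*, *Eno1* and *Me1* were the 3 (8.33%) with a 95% interval that stayed closer to 0 than 0.26 on either side, as did 45.6% of all genes.

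Smaller differences lay mostly on the same side. The log2 fold change was above 0 in 33 of the 36 genes (91.7%), and in 63.3% of all genes tested. At an unadjusted *P* under 0.05, 24 members (66.7%) were higher, against 15.2% of all genes. The median log2 fold change was 0.22 over the members, with quartiles at 0.15 and 0.32 and a range from -0.11 to 0.54, and 0.04 over all genes. Centred on that overall shift, the members' median was 0.18, and *Slc2a4*, *Slc16a3* and *Gpd2* were the 3 still called. The same centring changed the calls among all genes from 280 higher and 56 lower to 129 higher and 51 lower.

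**Figure D1:**
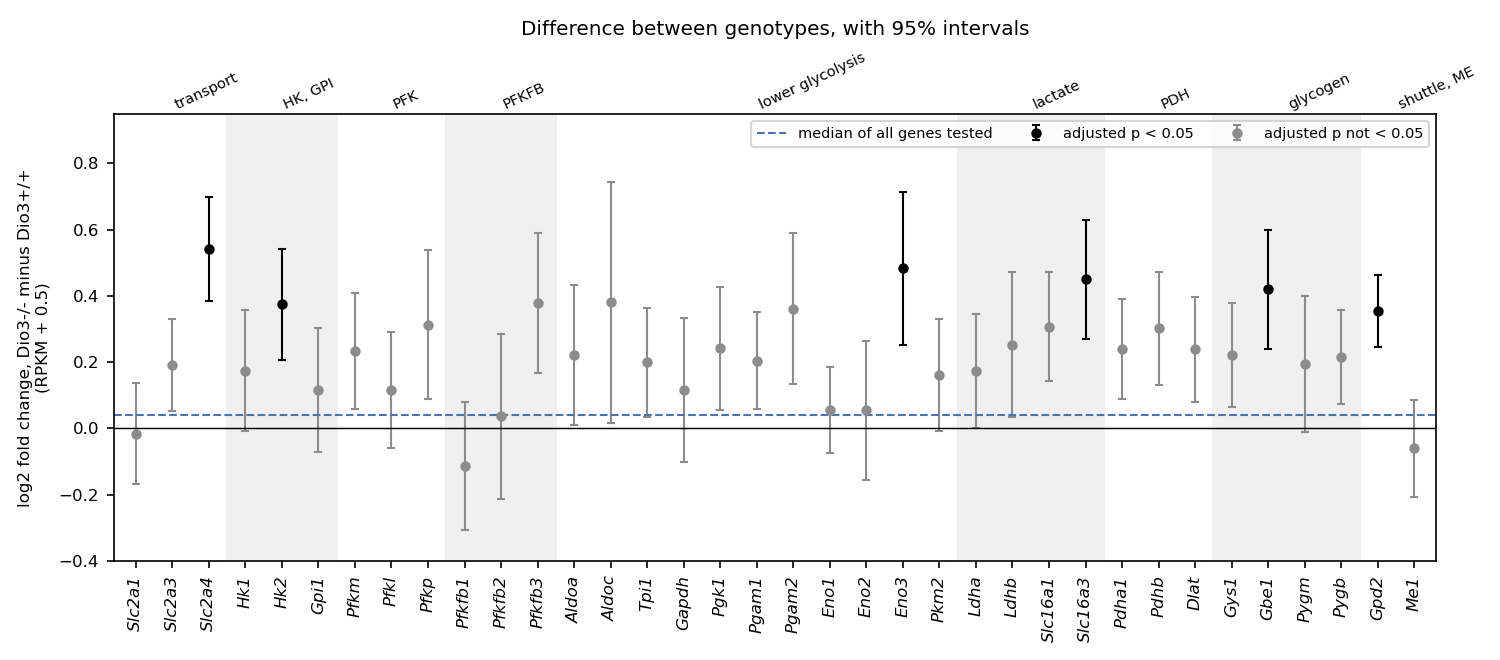
Log2 fold change of RPKM + 0.5 (Dio3-/- minus Dio3+/+) of the 36 tested genes, with 95% intervals from limma and n = 4 hearts per genotype, black for genes with an adjusted P under 0.05 and a dashed line at the median of all genes tested. The points run from -0.11 to 0.54, and 33 of 36 lie above 0.

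Of the 3 glucose transporters, 1 was called. *Slc2a4* had a mean of 8.08 RPKM in wild-type Dio3+/+ hearts (CV 0.05) and of 11.99 RPKM without *Dio3* (CV 0.09). These values place each Dio3+/+ heart between 7.47 and 8.69 RPKM and every Dio3-/- heart between 10.4 and 13.6 RPKM, so that the genotypes did not overlap. The log2 fold change was 0.54 ± 0.07 (95% interval 0.39 to 0.70, adjusted *P* = 0.0066, limma), the largest of the members. All 3 transcript rows of *Slc2a4* were called. *Slc2a1*, the ubiquitous transporter GLUT1 and by far the most abundant, stood at 126.89 (CV 0.10) and 125.46 RPKM (CV 0.01). Its log2 fold change of -0.02 ± 0.07 had an interval of -0.17 to 0.14 (adjusted *P* = 0.928, limma). *Slc2a3*, a high-affinity transporter of neurons and embryonic tissues, had 10.05 (CV 0.03) and 11.54 RPKM (CV 0.08), a log2 fold change of 0.19 ± 0.06 that was not called (adjusted *P* = 0.136, limma). *Slc2a4* thus went from 5.57% to 8.05% of the summed RPKM of the 3 transporters, with an SD of 0.55 and 0.67 percentage points if the genes vary independently over hearts, while *Slc2a1* went from 87.5% to 84.2%. Shares depended on the rows used, and with all rows of each gene summed, *Slc2a4* made up 13.2% and 18.2%.

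Of the hexokinases that admit glucose to glycolysis, the transcript with the higher mean was *Hk1*, the form of most tissues, at 69.24 (CV 0.12) and 78.21 RPKM (CV 0.05), which was not called (log2 fold change 0.17 ± 0.08, adjusted *P* = 0.291, limma). *Hk2* rose from 15.99 (CV 0.10) to 20.87 RPKM (CV 0.06), a log2 fold change of 0.37 ± 0.08 (interval 0.21 to 0.54, adjusted *P* = 0.0407, limma). The limits of its hearts, 13.6 to 18.4 RPKM and 19.0 to 22.7 RPKM, leave no overlap. This call was lost under several other settings, with an adjusted *P* of 0.0566 when limma was run without its mean-variance trend. *Gpi1*, glucose-6-phosphate isomerase, was at 248.31 (CV 0.11) and 269.13 RPKM (CV 0.07), and was not called (0.12 ± 0.08, adjusted *P* = 0.507, limma).

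The 3 phosphofructokinase subunits, which form the committed step, were expressed at similar levels, and none was called by limma. At an unadjusted *P* under 0.05, 2 of the 3 were higher, beside 15.2% of all genes. The muscle subunit *Pfkm* stood at 33.64 and 39.65 RPKM (log2 fold change 0.23 ± 0.08), the liver subunit *Pfkl* at 44.05 and 47.76 RPKM (0.12 ± 0.08) and the platelet subunit *Pfkp* at 38.59 and 48.07 RPKM (0.31 ± 0.10). Their adjusted *P* values by limma ran from 0.132 to 0.474. The bifunctional enzymes that make and break fructose 2,6-bisphosphate, the activator of phosphofructokinase, were expressed at lower levels. *Pfkfb3*, the isoform with the highest kinase to phosphatase activity, was at 7.13 (CV 0.11) and 9.41 RPKM (CV 0.11), and its log2 fold change of 0.38 ± 0.09 missed the threshold (adjusted *P* = 0.0700, limma). Its 10 transcript rows had log2 fold changes between 0.29 and 0.38. *Pfkfb1* stood at 1.89 and 1.71 RPKM, with the lowest log2 fold change of the members (-0.11 ± 0.09, interval -0.31 to 0.08). *Pfkfb2* had 3.06 and 3.15 RPKM, and its log2 fold change of 0.04 turned to the other side of 0 when the overall shift was removed. *Pfkfb4* was listed at 0.78 and 0.95 RPKM, under the limit of 1 RPKM, and was not tested. The share of *Pfkfb3* in the 4 isoforms was 55.4% in Dio3+/+ and 61.8% in Dio3-/- hearts, and that of *Pfkfb1* 14.7% and 11.2%. With all rows summed, *Pfkfb3* held 70.2% and 73.8% and *Pfkfb1* 2.22% and 1.68%.

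Lower glycolysis held the most abundant transcripts, and 1 of its 11 genes was called. The 11 means summed to 6390.21 RPKM with *Dio3* and to 7110.65 RPKM without it, and all 11 had a log2 fold change above 0. *Eno3* was listed at 67.80 RPKM (CV 0.13) and 94.98 RPKM (CV 0.11), a log2 fold change of 0.48 ± 0.10 (interval 0.25 to 0.71, adjusted *P* = 0.0485, limma). This was the call nearest to the threshold among the members, and it was lost without the filter on low values, without the trend, after centring, with each CV raised by its largest rounding error (adjusted *P* of 0.0623 to 0.0811, limma) and by a test without moderation of the variances. The limits of its hearts were 54.6 to 81.0 RPKM and 79.3 to 110.7 RPKM, so that these limits overlap. *Eno1*, the enolase of most tissues, stood at 392.76 (CV 0.04) and 408.15 RPKM (CV 0.06), with an interval of -0.07 to 0.19 around a log2 fold change of 0.06 (adjusted *P* = 0.663, limma). *Eno3* made up 14.7% of enolase RPKM in Dio3+/+ and 18.8% in Dio3-/- hearts, with SDs of 1.70 and 1.91 percentage points under independence, and *Eno1* 84.9% and 80.8%. With all rows summed, the *Eno3* share was 20.8% and 26.2%. The neuronal enolase *Eno2* was listed at 1.85 and 1.94 RPKM.

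Neither phosphoglycerate mutase, which moves the phosphate group ahead of enolase, was called. The muscle form *Pgam2* was at 149.42 (CV 0.14) and 192.11 RPKM (CV 0.09), a log2 fold change of 0.36 ± 0.10 (adjusted *P* = 0.0961, limma), and the brain form *Pgam1* at 257.81 (CV 0.06) and 297.12 RPKM (CV 0.07), a log2 fold change of 0.20 ± 0.07 (adjusted *P* = 0.131, limma). Among the aldolases, which split fructose 1,6-bisphosphate, *Aldoa* was at 842.65 and 982.54 RPKM (0.22 ± 0.09) and held 99.4% of the family in each genotype. *Aldoc* was at 4.71 (CV 0.22) and 6.28 RPKM (CV 0.20), and had the widest SE of the members (0.38 ± 0.16, adjusted *P* = 0.246, limma).

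*Gapdh*, the triose phosphate dehydrogenase often used as a reference transcript, was the most abundant member at 3540.29 (CV 0.11) and 3835.39 RPKM (CV 0.06). Its log2 fold change of 0.12 ± 0.10 (interval -0.10 to 0.33) was not called (adjusted *P* = 0.572, limma). The *Gapdh* symbol stands on 4 rows with log2 fold changes of 0.10 to 0.12, and reads of its processed pseudogenes may be counted under it. *Tpi1*, which interconverts the triose phosphates, was at 280.99 and 322.78 RPKM (0.20 ± 0.07), and *Pgk1*, the first ATP-yielding enzyme of the pathway, at 257.11 and 304.17 RPKM (0.24 ± 0.08). *Pkm2*, the symbol under which the table lists pyruvate kinase of muscle and most fetal tissues, was at 594.82 and 665.19 RPKM (0.16 ± 0.07) on its leading row, and its 4 rows had log2 fold changes of 0.15 to 0.16. None of these 3 genes was called, with adjusted *P* values of 0.152 to 0.287 by limma.

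**Figure D2:**
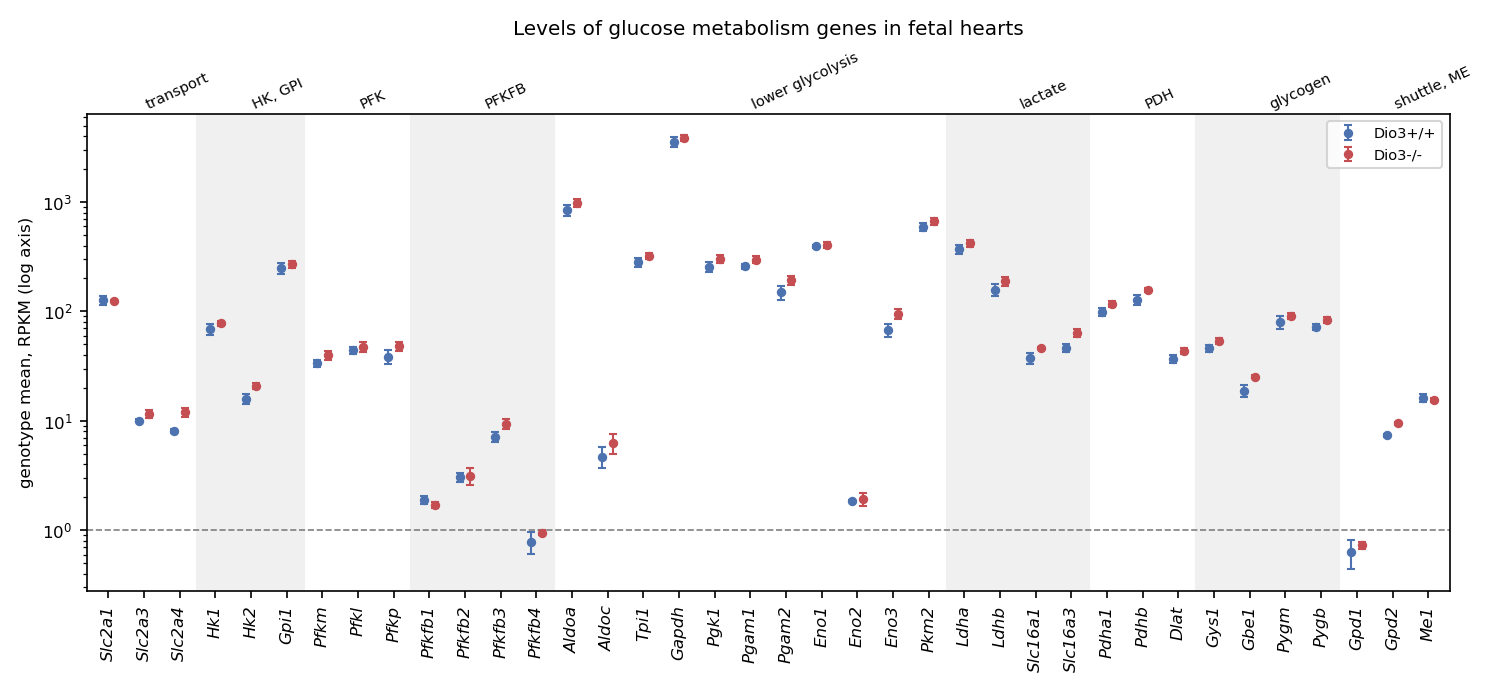
Authors' mean of each member in RPKM for Dio3+/+ and Dio3-/- hearts on a log axis, with bars of 1 SD calculated from the coefficient of variation (4 hearts per genotype) and a dashed line at 1 RPKM. The means span from 0.63 RPKM for *Gpd1* to 3835.39 RPKM for *Gapdh*.

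The fate of pyruvate was examined through lactate formation and transport and through pyruvate dehydrogenase. *Slc16a3* rose from 46.49 (CV 0.09) to 63.67 RPKM (CV 0.09), a log2 fold change of 0.45 ± 0.08 (interval 0.27 to 0.63, adjusted *P* = 0.0258, limma). Its hearts lay within 40.2 to 52.8 RPKM in Dio3+/+ and within 55.1 to 72.3 RPKM in Dio3-/- fetuses, with no overlap, and all 3 of its rows were called. *Slc16a1*, the monocarboxylate transporter MCT1 that takes up lactate, was at 37.37 (CV 0.11) and 46.36 RPKM (CV 0.03). The limits of its hearts did not overlap either, at 31.2 to 43.5 and 44.3 to 48.4 RPKM, but its log2 fold change of 0.31 ± 0.07 missed the threshold (adjusted *P* = 0.0631, limma). Lactate dehydrogenase was not called in either subunit. *Ldha* stood at 371.41 and 418.86 RPKM (0.17 ± 0.08) and *Ldhb*, the subunit that prevails in the adult heart, at 158.29 and 188.73 RPKM (0.25 ± 0.10), so that *Ldhb* made up 29.9% and 31.1% of the pair, or 13.1% and 13.6% with all rows summed.

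The 3 members that encode subunits of the pyruvate dehydrogenase complex had log2 fold changes of 0.24 to 0.30, and none was called. *Pdha1*, the catalytic alpha subunit, was at 98.88 (CV 0.08) and 116.84 RPKM (CV 0.06), a log2 fold change of 0.24 ± 0.07 (adjusted *P* = 0.0948, limma). *Pdhb*, its beta partner, was at 128.15 (CV 0.11) and 158.18 RPKM (CV 0.04), a log2 fold change of 0.30 ± 0.08 (adjusted *P* = 0.0707, limma). *Dlat*, the acetyltransferase core, was at 36.88 (CV 0.09) and 43.59 RPKM (CV 0.06), a log2 fold change of 0.24 ± 0.07 (adjusted *P* = 0.108, limma). Each was higher at an unadjusted *P* under 0.05 (limma), as were 15.2% of all genes.

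In glycogen metabolism the branching enzyme *Gbe1*, which adds the branch points of the polymer, was the gene called. It rose from 18.88 (CV 0.12) to 25.42 RPKM (CV 0.04), a log2 fold change of 0.42 ± 0.08 (interval 0.24 to 0.60, adjusted *P* = 0.0335, limma). Its hearts lay within 15.5 to 22.3 RPKM and 23.9 to 26.9 RPKM, without overlap, and the lower of its 2 rows, at 3.56 and 4.98 RPKM, was called too. The call of *Gbe1* was lost without the filter on low values and after centring (adjusted *P* of 0.0550 and 0.0585, limma) and by a test without moderation of the variances. *Gys1*, the muscle glycogen synthase, was at 45.92 and 53.66 RPKM (0.22 ± 0.07, adjusted *P* = 0.125, limma). The phosphorylases that release glucose 1-phosphate were not called. The muscle form *Pygm* stood at 79.82 and 91.35 RPKM (0.19 ± 0.09) and the brain form *Pygb* at 72.40 and 84.10 RPKM (0.21 ± 0.06), and *Pygm* held 52.4% and 52.1% of their sum.

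The glycerophosphate shuttle was represented by its mitochondrial enzyme. *Gpd2* rose from 7.36 (CV 0.03) to 9.54 RPKM (CV 0.03), and its log2 fold change of 0.35 ± 0.05 (interval 0.24 to 0.46, adjusted *P* = 0.0078, limma) had the smallest SE of the 6 genes called. Its hearts lay within 7.03 to 7.69 RPKM in Dio3+/+ and 9.11 to 9.97 RPKM in Dio3-/- fetuses. Of its 2 other rows, 1 followed it, at 7.22 and 9.35 RPKM (adjusted *P* = 0.0082, limma), and the other did not, at 4.33 (CV 0.12) and 4.38 RPKM (CV 0.07), with a log2 fold change of 0.01 (adjusted *P* = 0.951, limma). The cytosolic partner *Gpd1* was listed at 0.63 (CV 0.30) and 0.73 RPKM (CV 0.08), under the limit, and was not tested. *Me1*, the cytosolic malic enzyme and a hepatic target of thyroid hormone, was at 16.24 (CV 0.08) and 15.55 RPKM (CV 0.05), with a log2 fold change of -0.06 ± 0.06 (interval -0.21 to 0.08, adjusted *P* = 0.671, limma).

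**Figure D3:**
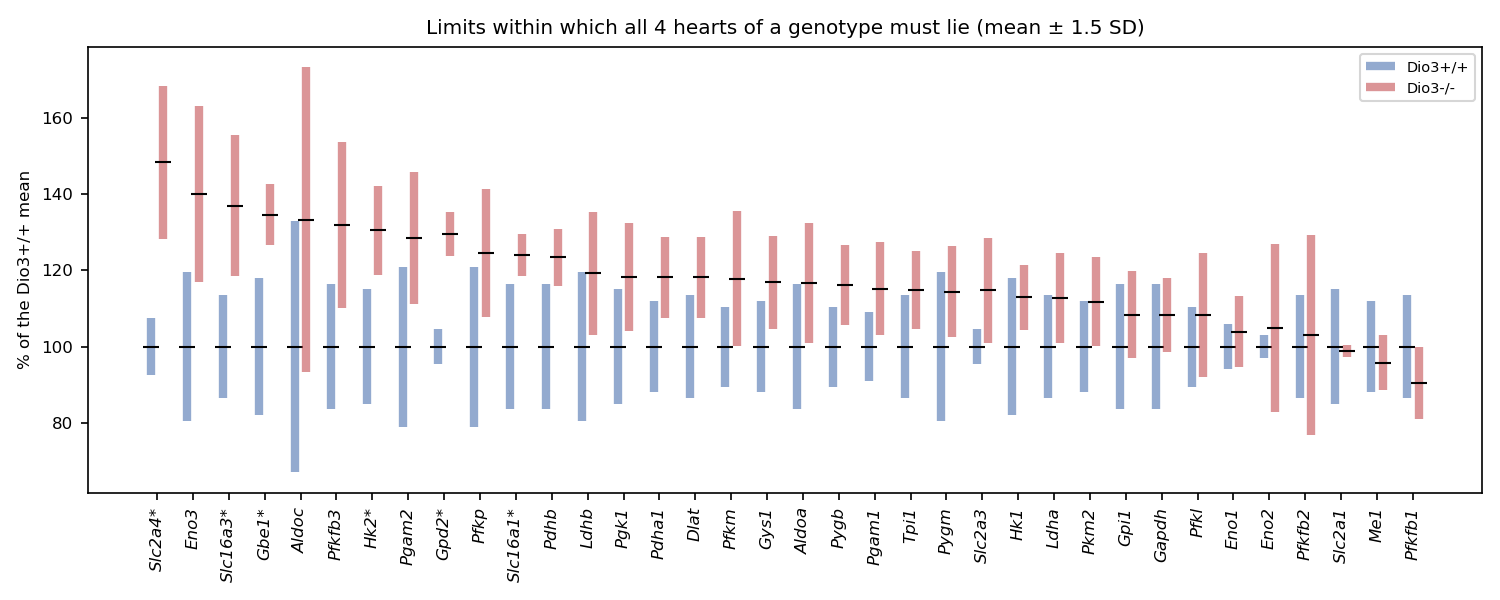
Limits within which all 4 hearts of a genotype must lie (mean ± 1.5 SD) for the 36 tested genes, in percent of the Dio3+/+ mean and ordered by log2 fold change, with an asterisk where the limits leave no overlap. The 6 genes with an asterisk all have the higher limits in Dio3-/- hearts.

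Separation of the genotypes could thus be read for 6 genes, *Slc2a4*, *Hk2*, *Slc16a1*, *Slc16a3*, *Gbe1* and *Gpd2*, which is 16.7% of the members tested. Over all genes, 4.8% were separated in this way with Dio3-/- hearts higher and 0.682% with Dio3-/- hearts lower. If the coefficients of variation had been calculated with n in place of n - 1, the limits would be wider and 4 of the 6 would be left, *Slc2a4*, *Slc16a3*, *Gbe1* and *Gpd2*, against 3.02% of all genes higher. The largest coefficient listed was 2.0, which 4 non-negative values can reach with n - 1 but not with n. With each coefficient raised by the 0.005 of its rounding, the same 6 were separated, against 3.47% of all genes higher.

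The isoenzyme shares were taken from the row with the highest mean of each gene. With all rows summed, in which a gene listed on more rows weighs more, 41 of the 54 shares moved by more than their SD, and 26 of the 27 differences between genotypes kept their sign, the exception being *Pfkm*. Reads that could align to more than 1 isoenzyme were not used by the authors, which bears on the levels of closely related pairs. The SDs of the shares depend on how the genes vary together over hearts, which the table does not give, so that no test of the shares was made.

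**Figure D4:**
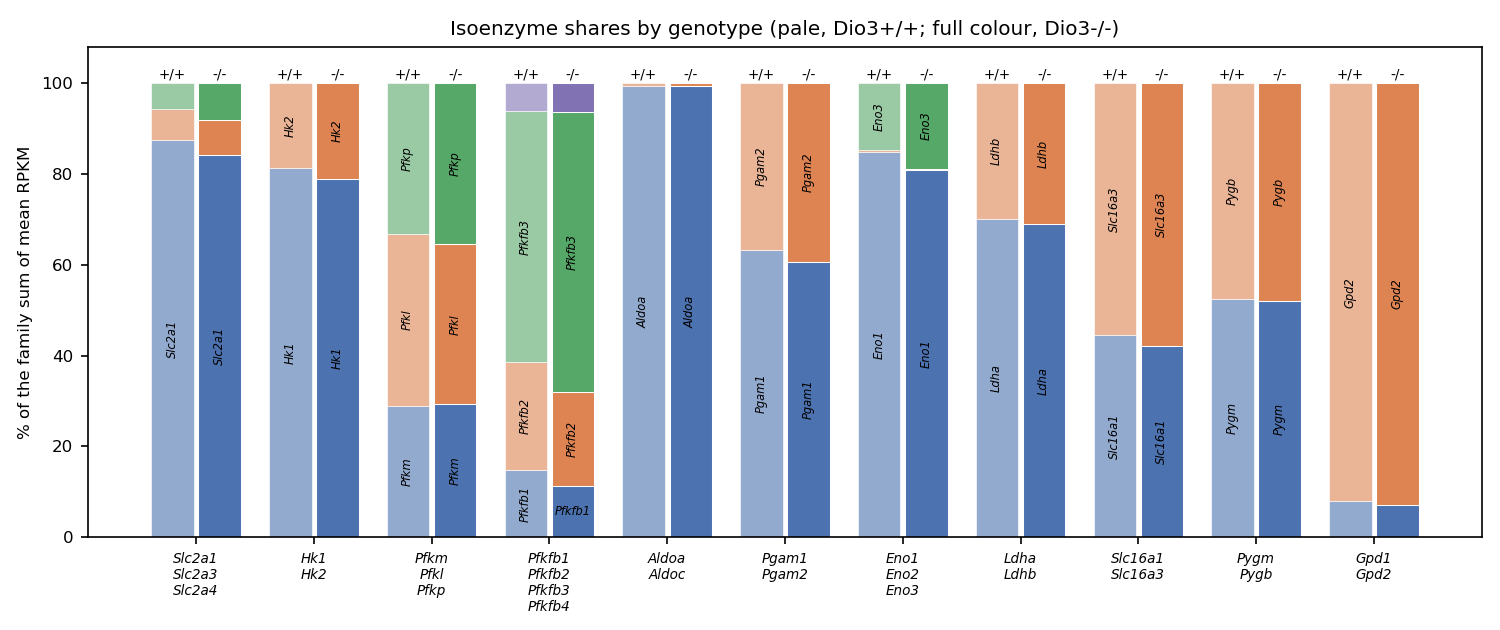
Share of each isoenzyme in the summed mean RPKM of its family, in percent, for Dio3+/+ and Dio3-/- hearts, from the row with the highest mean of each gene. *Slc2a4* goes from 5.57% to 8.05% and *Eno3* from 14.7% to 18.8%, while the *Aldoa* share is 99.4% in each. With all rows summed, *Slc2a4* has 13.2% and 18.2% and *Eno3* 20.8% and 26.2%.

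Other genes of the same pathways were counted from lists of their neighbours. Over all genes tested, 1.91% were called higher and 63.3% had a log2 fold change above 0. Of 11 genes of the pyruvate carrier, the control of pyruvate dehydrogenase and its further subunits *Dld* and *Pdhx*, 2 were higher and none lower. All 11 had a log2 fold change above 0. *Brp44l*, which encodes the mitochondrial pyruvate carrier subunit MPC1, rose from 42.04 to 58.73 RPKM (log2 fold change 0.48, adjusted *P* = 0.0034, limma). *Pdp2*, a phosphatase that activates pyruvate dehydrogenase, rose from 3.91 to 5.05 RPKM (0.33, adjusted *P* = 0.0366, limma). *Pdk4*, a kinase that inactivates the complex, stood at 11.69 and 12.47 RPKM and was not called. Of 8 genes of a list that joins the malate-aspartate shuttle, the other route for cytosolic NADH, with *Gpd1l*, a relative of *Gpd1*, 2 were higher, namely the cytosolic aspartate aminotransferase *Got1*, from 45.47 to 62.91 RPKM (0.46, adjusted *P* = 0.0217, limma), and the aspartate-glutamate carrier *Slc25a13*, from 24.95 to 31.48 RPKM (0.33, adjusted *P* = 0.0348, limma). Over the 8 genes of the list the median log2 fold change was 0.31 and all were above 0, *Gpd1l* included.

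In the remaining neighbouring routes 1 gene was called. Among 18 further glycogen genes the median log2 fold change was 0.05 and the phosphorylase kinase subunit *Phka2* was called, at 11.16 and 13.18 RPKM (0.23, adjusted *P* = 0.0495, limma). None of 7 pentose phosphate genes was called by limma, and their median was 0.00. At an unadjusted *P* under 0.05, 2 were lower, beside 4.46% of all genes. The transaldolase *Taldo1* stood at 70.19 and 53.88 RPKM (-0.38, adjusted *P* = 0.0606, limma). Limma called none of 10 other glycolytic genes, with 0 higher and 1 lower at an unadjusted *P* under 0.05, and none of 3 gluconeogenic genes, with 0 in either direction. That gene was *Bpgm*, the red cell enzyme that makes 2,3-bisphosphoglycerate, which stood at 72.97 (CV 0.32) and 32.91 RPKM (CV 0.47), without a call (adjusted *P* = 0.0978, limma).

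Regulators were read in the same manner. Of 7 genes known to regulate *Slc2a4*, *Ppargc1b*, a coactivator of mitochondrial genes, was higher, at 8.46 and 12.17 RPKM (0.50, adjusted *P* = 0.0301, limma). Of 10 hypoxia-inducible genes outside glycolysis, 4 were higher and 8 had a log2 fold change above 0, beside 1.91% and 63.3% of all genes. The angiogenic factor *Vegfa* rose from 22.62 to 31.57 RPKM (0.47, adjusted *P* = 0.0023, limma) and the vasodilator peptide gene *Adm* from 3.04 to 5.66 RPKM (0.80, adjusted *P* = 0.0045, limma), and the oxygen-sensing prolyl hydroxylase genes *Egln3*, from 5.85 to 8.34 RPKM (0.48, adjusted *P* = 0.0246, limma), and *Egln1*, from 35.37 to 44.74 RPKM (0.33, adjusted *P* = 0.0330, limma), were called too. *Car9* and *Ndrg1* of the same list had log2 fold changes of -0.03 and -0.06. The thyroid hormone receptor gene *Thra* was listed at 46.32 and 46.45 RPKM, and *Dio3* itself at 0.35 (CV 1.23) and 0.13 RPKM (CV 0.76), too low to check the genotypes.

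Sequences just upstream of *Hk2*, *Eno3* and *Gbe1*, which were among the genes called, are shown because thyroid hormone receptors bind half-sites with the letters AGGTCA and hypoxia-inducible factors bind a core with the letters ACGTG. RefSeq starts on GRCm38.p6 were matched to 35 of the 38 members and not to *Slc2a3*, *Slc2a4* and *Gpd1*. The 250 bases before a start, on either strand, held AGGTCA at 8 of the 54 starts of members (14.8%) and at 14.0% of all 32851 starts. They held ACGTG at 21 of the 54 (38.9%) and at 16.6% of all starts, in 17 of the 35 genes, *Hk2*, *Slc16a3* and *Gpd2* included. The ACGTG core is also part of the E-box CACGTG, so that a match may be either. The GC box GGGCGG was in 46.3% and 32.7%, and the TATA box TATAAA in 3.7% and 12.4%. The stretches of *Hk2* at chr6:82774455-82774704 (minus strand), *Eno3* at chr11:70656926-70657175 (plus strand) and *Gbe1* at chr16:70313699-70313948 (plus strand) overlap no annotated exon. They read 5′ to 3′ as follows, with AGGTCA and ACGTG of either strand in capitals.
Hk2: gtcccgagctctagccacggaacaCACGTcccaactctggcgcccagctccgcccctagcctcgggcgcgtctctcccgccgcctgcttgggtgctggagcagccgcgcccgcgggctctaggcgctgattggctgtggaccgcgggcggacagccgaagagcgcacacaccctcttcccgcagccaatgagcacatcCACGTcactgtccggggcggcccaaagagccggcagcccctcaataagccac
Eno3: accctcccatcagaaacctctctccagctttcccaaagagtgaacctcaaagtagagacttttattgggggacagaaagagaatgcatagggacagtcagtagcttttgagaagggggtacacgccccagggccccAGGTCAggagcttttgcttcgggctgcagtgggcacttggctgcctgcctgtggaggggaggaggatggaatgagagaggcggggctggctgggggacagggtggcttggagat
Gbe1: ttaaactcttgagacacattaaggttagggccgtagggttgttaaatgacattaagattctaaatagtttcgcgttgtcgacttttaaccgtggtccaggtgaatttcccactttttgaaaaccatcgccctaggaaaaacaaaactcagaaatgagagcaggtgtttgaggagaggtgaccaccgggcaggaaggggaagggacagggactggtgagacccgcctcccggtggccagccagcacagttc
*Hk2* has 2 copies of the ACGTG core, seen here as CACGT on the strand of the gene. Both copies are followed by c, so that neither is part of CACGTG. *Eno3* has 1 AGGTCA half-site and *Gbe1* has neither motif. A match of letters is no measured binding site, and no binding was measured in these hearts.

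Markers of cell types were read beside these values, since in whole hearts fewer cells of a type and less RNA per cell cannot be told apart. All 6 cardiomyocyte markers had a log2 fold change above 0, as did 63.3% of all genes tested. Their median was 0.23 against 0.22 for the members, but they ran from 0.08 to 0.59. *Tnnt2* (0.08) and *Nkx2-5* (0.11) were the lowest. Their means summed to 7003.29 and 8180.18 RPKM, mostly from *Actc1* at 4778.41 and 5638.08 RPKM. The cardiac ryanodine receptor gene *Ryr2* was the one called (0.59, adjusted *P* = 0.0231, limma). The part of the muscle cell share in the results was not tested. Skeletal muscle markers, which matter because *Slc2a4*, *Eno3*, *Pgam2*, *Slc16a3* and *Pygm* are also skeletal muscle genes, lay in the opposite direction, with sums of 64.26 RPKM in Dio3+/+ and of 16.36 RPKM in Dio3-/- hearts and 1 of 9 higher in Dio3-/- hearts. Limma called none of them, with 4 lower at an unadjusted *P* under 0.05, beside 4.46% of all genes. Their CV in Dio3+/+ hearts ran from 0.29 to 1.72, and that of *Slc2a4*, *Eno3*, *Pgam2*, *Slc16a3* and *Pygm* from 0.05 to 0.14. The part of skeletal muscle cells in the values of these genes was not tested. The 7 erythroid markers were all below 0, from a summed mean of 37287.6 to 12752.8 RPKM, and *Hbb-bh1*, an embryonic globin, was called lower (-1.51, adjusted *P* = 0.0468, limma). Hepatocyte markers summed to 22.91 and 122.59 RPKM, with 8 of 8 higher in Dio3-/- hearts and none called by limma. Without adjustment, all 8 were under 0.05, beside 15.2% of all genes on the higher side. They varied widely between hearts, with a CV of 0.18 to 1.41 in Dio3+/+ and of 0.68 to 1.26 in Dio3-/- hearts. The 6 chondrocyte and bone markers summed to 59.88 and 34.18 RPKM, with 3 tested and 2 of 6 higher in Dio3-/- hearts. *Ibsp* was called lower, at 11.25 (CV 1.54) and 0.03 RPKM (CV 0.59). The limits of its Dio3+/+ hearts ran from 0 to 37.2 RPKM. The part of these cells in the results was not tested.

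**Figure D5:**
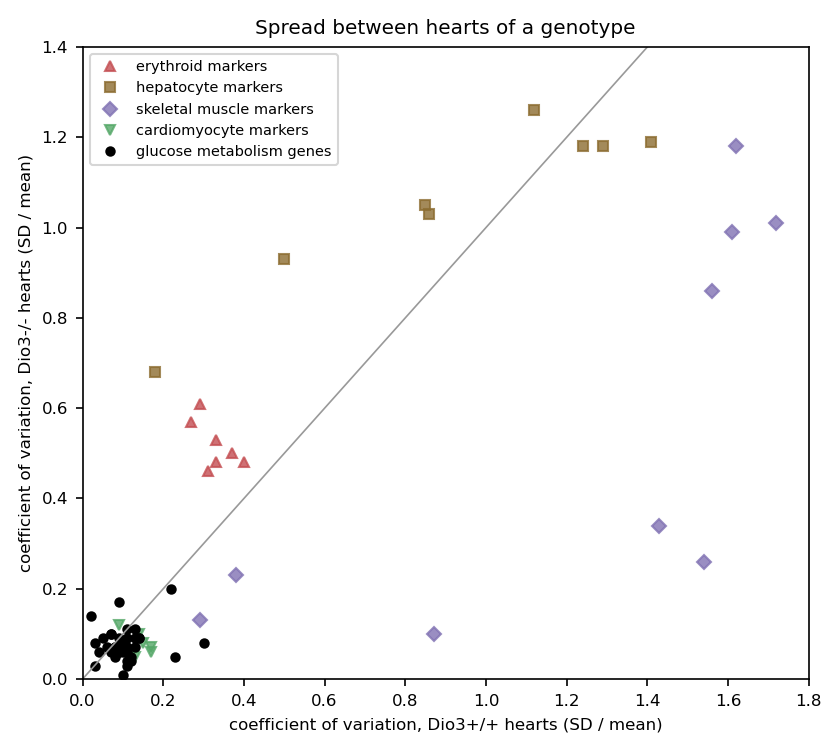
Coefficient of variation over 4 hearts in Dio3+/+ (horizontal) and Dio3-/- hearts (vertical) for the members and for erythroid, hepatocyte, skeletal muscle and cardiomyocyte markers. Tested members lie between 0.02 and 0.22 in Dio3+/+ and between 0.01 and 0.20 in Dio3-/- hearts, while skeletal muscle markers reach 1.72 in Dio3+/+ hearts.

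The members varied little within a genotype. Their median CV was 0.09 in Dio3+/+ and 0.07 in Dio3-/- hearts, beside 0.09 and 0.06 over all genes tested, and *Aldoc* was the 1 tested member above 0.2. The limits of the hearts bound how far the Dio3-/- hearts labelled E18.5 can lie from the others, and their width differed between members. In Dio3-/- hearts they were narrow for *Slc2a1*, at 124 to 127 RPKM (CV 0.01), and *Gpd2*, at 9.11 to 9.97 RPKM (CV 0.03). They were wider for *Eno3*, at 79.3 to 110.7 RPKM (CV 0.11), and *Aldoc* had a CV of 0.20. Which heart had which value within such limits is not given by the table.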

How the data were processed

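RNA of 4 Dio3+/+ and 4 Dio3-/- fetal hearts was depleted of ribosomal RNA and sequenced. Reads were checked with FastQC and aligned with Novoalign 2.08 by the authors, who kept reads with a unique position and scaled all libraries in proportion to the smallest one. The build they aligned to is not given in the sources used here. The authors deposited 1 mean per genotype and transcript, read here as RPKM because the methods state their expression limit in that unit and the header names none. They also deposited coefficients of variation, each a ratio of SD to mean, at 2 decimals. The table's q values and fold changes between genotypes are the authors' own comparison and were not used. It holds no single hearts or read totals. The methods text gives read numbers as a range and an average over samples, so the read count behind each value is not known.

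Log2(mean + 0.5) was compared between genotypes with SDs obtained from the coefficients of variation by the delta method, 6 residual and 3.52 prior degrees of freedom, by limma 3.58.1 (R 4.3.3) with a mean-variance trend and Benjamini-Hochberg adjustment over 32703 transcripts above 1 RPKM in at least 1 genotype. The test was also run on simulated data, with rows drawn independently and a shared spread for both genotypes. Real rows differ in both respects, so that run does not show how the test performs here. The row with the highest mean stood for each gene. All members are named or counted, and other genes come from fixed lists by name. The members and lists were chosen with earlier results of these data known. Another pseudocount, filter, test, centring and spread were tried.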

Additional observations from a re-analysis of the deposited data

How the results depend on the processing

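The main settings called 6 members higher and 0 lower by limma, with 280 of all genes higher and 56 lower. With a pseudocount of 0.1 or 1, a mean above 5, or 1 row per gene, 6 members were called. Without a filter on low values, 3 members were called, with 168 genes higher and 29 lower. Without the mean-variance trend, 4 members were called and 37 genes were lower. Welch's test from the summaries called 1 member, *Gpd2*, with 27 genes higher and 0 lower (429 lower at an unadjusted *P* under 0.05). Centring on the median called 3 members and 129 genes higher, and it turned *Pfkfb2* to a log2 fold change of -0.0019 (adjusted *P* = 0.996, limma). Raising each coefficient of variation by the 0.005 of its rounding called 4 members, with 157 genes higher and 30 lower. *Slc2a4*, *Slc16a3* and *Gpd2* were called under every limma setting. *Hk2* and *Eno3* lost their calls without the filter, without the trend, centred and with the raised spread, at adjusted *P* values of 0.0564 to 0.0811 (limma), and *Gbe1* without the filter (0.0550) and centred (0.0585). No member was called lower under any setting. No paired analysis was possible because the table holds genotype means and coefficients of variation and no values of single hearts, and leaving out each heart could not be run for the same reason. The read counts behind genes near 1 RPKM are not listed, so the limit that depth sets on them was not assessed.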
